A study of Homo sapiens with 60 samples.

Results

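Untreated Rescue cells had 2707 H3K27Ac regions at which no other condition of the study had a peak, out of 21390 merged H3K27Ac regions in all (12.7%). A peak here is an entry of a deposited list with a global irreproducible discovery rate (IDR) of 0.05 or less on chromosomes 1 to 22. The IDR is small where both replicates rank an entry alike and high, so an entry that is weak in both replicates can have a large IDR. Peaks of the 6 H3K27Ac lists were pooled, overlapping ones were merged, and a merged region was kept when only the untreated Rescue list had a peak in it. The regions were thus chosen by the peak calls of all 6 H3K27Ac lists. Their strength and their IDR values in any H3K27Ac list are given as description, without a test. Each of the 2707 regions held exactly 1 untreated Rescue peak, so they are called Rescue-only peaks below. They made up 19.1% of the 14177 H3K27Ac peaks of that list (95% Wilson interval 18.5% to 19.7%). The other 11470 peaks of the same list lay in regions where at least 1 other list also had a peak, and are called shared peaks.

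The cells were PC9, a human lung adenocarcinoma line that depends on EGFR signalling, profiled by CUT&RUN, in which an antibody directs a nuclease to its target and the released DNA is sequenced. Rescue cells are METTL7A knockout PC9 cells made to overexpress METTL7A with a MYC and FLAG tag. KO cells lack METTL7A, and WT cells are the unmodified line. Each genotype was either untreated or exposed to osimertinib, an EGFR inhibitor, at doses raised from 100 nM over 6 to 8 weeks. This gives, for every antibody, treated and untreated Rescue, treated and untreated KO, and treated and untreated WT cells, with 2 samples each joined in 1 deposited list. Rescue cells carry the knockout as well as the transgene. Whether each line came from 1 clone, and whether the 2 samples were separate cultures, was not given in the sources used here. With 1 list per condition no list had a replicate of its own, so no p-value was computed, and the intervals cover counting error only. Read totals per sample are unknown. The lists differed in length: the untreated Rescue list had 14177 H3K27Ac peaks, the treated Rescue list 12991, the untreated KO list 5420, the treated KO list 8383, the treated WT list 10077 and the untreated WT list 5045.

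H3K27Ac is acetylation of lysine 27 of histone H3 and marks active promoters and enhancers. RAD21 is a core subunit of cohesin, the ring complex that holds chromatin loops, many of which are anchored at sites bound by CTCF. PDS5A binds cohesin and helps control how it is released from and kept on chromatin. IgG, an antibody with no chromatin target, measures background.

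Rescue-only peaks were weaker than shared peaks of the same list. Strength is taken as the lower of the 2 replicates' −log10 p at a peak, the authors' own values. Its median was 13.7 at Rescue-only peaks, with quartiles of 11.9 and 16.2 and a range of 10.6 to 120.4, against a median of 21.4 at shared peaks, with quartiles of 15.9 and 29.9 and a maximum of 161. Both replicates showed this order. The median −log10 p in the first replicate column was 14.9 at Rescue-only peaks and 24.2 at shared peaks, and in the second column 15.5 at Rescue-only peaks and 25.9 at shared peaks. Only 31 Rescue-only peaks (1.15%) had a strength of 30 or more, against 24.7% of shared peaks. A strength of 20 or more was reached by 244 Rescue-only peaks (9.01%) and by 56.0% of shared peaks. The replicates of the untreated Rescue list differed at Rescue-only peaks about as much as at shared peaks: the median ratio of the higher to the lower replicate value was 1.22 at Rescue-only peaks and 1.24 at shared peaks.

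Rescue-only peaks lay nearer to the limit that defined them. Their median global IDR was 0.0225, against 0.00650 at shared peaks. An IDR over 0.01 was found for 2290 Rescue-only peaks (84.6%) and for 36.4% of shared peaks. When the 14177 peaks were divided into 4 classes of about equal size by strength, Rescue-only peaks were 45.0% of the weakest class, 22.8% of the next, 6.92% of the third and 1.27% of the strongest. Just inside the limit stood chr6:100744792-100745443, with an IDR of 0.04994 and replicate values of 12.5 and 10.8. Just outside it, in a region with no peak in any list, stood chr17:62989284-62990588, with an IDR of 0.05002 and replicate values of 11.9 and 10.8. The other 4 nearest entries inside had IDR values down to 0.04984 and widths of 538 to 1185 bp, and the other 4 nearest outside had IDR values up to 0.05018 and widths of 322 to 1143 bp. Entries on both sides of the limit had like replicate values.

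Rescue-only peaks were also narrower. Their median width was 1243 bp, with quartiles of 922 and 1707 bp and a range of 222 to 8370 bp, against a median of 1698 bp at shared peaks, with quartiles of 1272 and 2320 bp and a maximum of 26450 bp. The values of the regions found in untreated Rescue cells alone moved with the limit: the median strength was 21.4 and the median width 1727 bp with a global IDR of 0.01 or less, 26.5 and 1869 bp with lists of equal length, and 4.99 and 542 bp with every deposited entry. Widths under 1000 bp made up 31.0% of Rescue-only peaks and 11.4% of shared peaks. Widths of 4000 bp or more made up 0.960% of Rescue-only peaks (26 of them) and 4.72% of shared peaks. Width followed strength. In the weakest class the median width was 1109 bp at Rescue-only peaks and 1301 bp at shared peaks, while in the strongest class it was 2569 bp at the 45 Rescue-only peaks and 2151 bp at shared peaks.

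**Figure D1:**
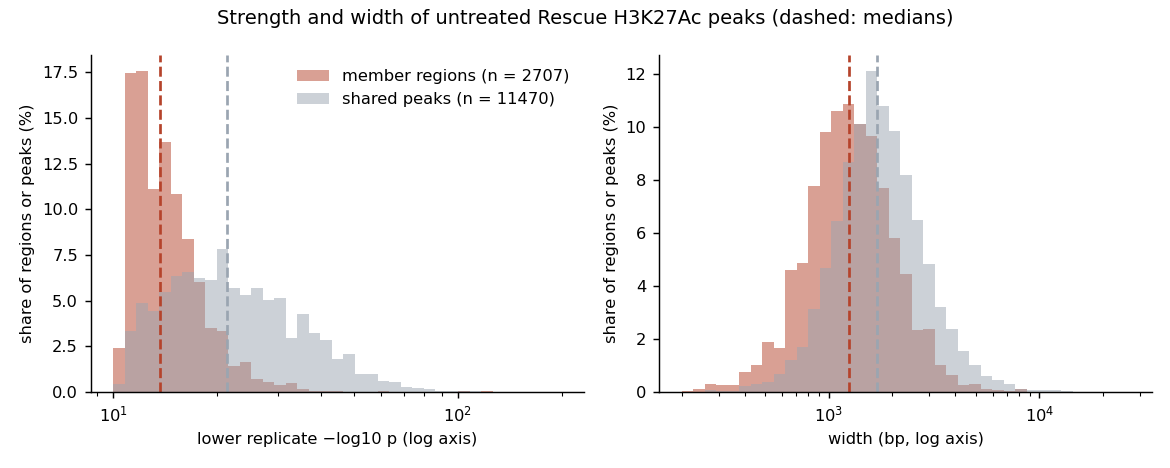
Distribution of strength (left, lower replicate −log10 p, log axis) and width (right, bp, log axis) of the 2707 Rescue-only peaks (member regions) and the 11470 shared peaks of the untreated Rescue H3K27Ac list, as the share of each set. Dashed lines mark the medians, 13.7 against 21.4 in strength and 1243 against 1698 bp in width.

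Rescue-only peaks carried cohesin less often than shared peaks did. This comparison used the RAD21 and PDS5A lists, which had no part in choosing the regions. A RAD21 peak of untreated Rescue cells overlapped 297 Rescue-only peaks (11.0%, interval 9.85% to 12.2%), against 33.6% of shared peaks (32.7% to 34.4%) and 29.3% of all untreated Rescue H3K27Ac peaks. A PDS5A peak of untreated Rescue cells overlapped 383 Rescue-only peaks (14.1%, interval 12.9% to 15.5%), against 39.2% of shared peaks (38.3% to 40.1%) and 34.4% of all. Both intervals of the Rescue-only peaks lay wholly below those of the shared peaks. With the 6 H3K27Ac lists shortened to equal length, the shares were higher in both sets: RAD21 lay on 27.2% of the 481 regions then found in untreated Rescue cells alone, against 47.1% of shared peaks, and PDS5A on 30.6%, against 53.9%. Both proteins had a peak at 213 Rescue-only peaks (7.87%), against 25.9% of shared peaks and 22.5% of all. Neither had one at 2240 Rescue-only peaks (82.7%), against 53.1% of shared peaks and 58.8% of all.

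The gap was there without the IDR limit on cohesin as well. Any deposited RAD21 entry of untreated Rescue cells, whatever its IDR, lay on 38.6% of Rescue-only peaks, against 74.5% of shared peaks and 67.6% of all. Any deposited PDS5A entry lay on 46.2% of Rescue-only peaks, against 81.5% of shared peaks and 74.8% of all. No deposited entry of either protein in any of the 6 conditions lay on 842 Rescue-only peaks (31.1%), against 6.56% of shared peaks and 11.3% of all.

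Cohesin was found less often at Rescue-only peaks in the lists of each of the 6 conditions. For RAD21, treated Rescue cells had a peak at 339 Rescue-only peaks (12.5%), against 42.3% of shared peaks and 36.6% of all. Untreated KO cells had one at 7.28% of Rescue-only peaks, against 22.7% of shared peaks and 19.8% of all, and treated KO cells at 4.69%, against 19.6% of shared peaks and 16.8% of all. Treated WT cells, whose RAD21 list was the longest with 16340 peaks, had one at 477 Rescue-only peaks (17.6%), against 49.0% of shared peaks and 43.0% of all. Untreated WT cells, with the shortest RAD21 list of 3635 peaks, had one at 4.43% of Rescue-only peaks, against 16.4% of shared peaks and 14.1% of all. The share on RAD21 was thus higher in treated WT than in untreated Rescue cells, although these H3K27Ac peaks passed the IDR limit in untreated Rescue cells alone. A RAD21 peak was present in all 6 conditions at 50 Rescue-only peaks (1.85%), against 8.12% of shared peaks and 6.92% of all.

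For PDS5A, the untreated Rescue list was the longest, with 13746 peaks, and gave the highest share at Rescue-only peaks, the 14.1% above. Treated Rescue cells had a PDS5A peak at 9.86% of Rescue-only peaks, against 36.1% of shared peaks and 31.1% of all. Untreated KO cells, with 901 PDS5A peaks, had one at 36 Rescue-only peaks (1.33%), against 2.65% of shared peaks and 2.40% of all. Treated KO cells had one at 3.99% of Rescue-only peaks, against 17.4% of shared peaks and 14.8% of all. Treated WT cells had one at 11.3% of Rescue-only peaks, against 36.2% of shared peaks and 31.4% of all, and untreated WT cells, with 1731 PDS5A peaks, at 2.07%, against 6.78% of shared peaks and 5.88% of all. For PDS5A and for RAD21 alike, the order of the 6 shares at Rescue-only peaks was the order of the lengths of the lists, from the longest to the shortest. The part of list length in these shares was not tested. PDS5A regions found only in the untreated Rescue PDS5A list, 2898 of 18926 merged PDS5A regions, overlapped 115 Rescue-only H3K27Ac peaks (4.25%, interval 3.55% to 5.08%), against 5.80% of shared peaks (5.38% to 6.24%) and 5.50% of all. So, as a share of all peaks of each set, Rescue-only peaks did not carry these PDS5A regions more often than the rest of the list did. Counted only among peaks with any PDS5A peak of untreated Rescue cells, the order was the other way. These PDS5A regions then lay on 115 of 383 Rescue-only peaks, against 665 of 4497 shared peaks.

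**Figure D2:**
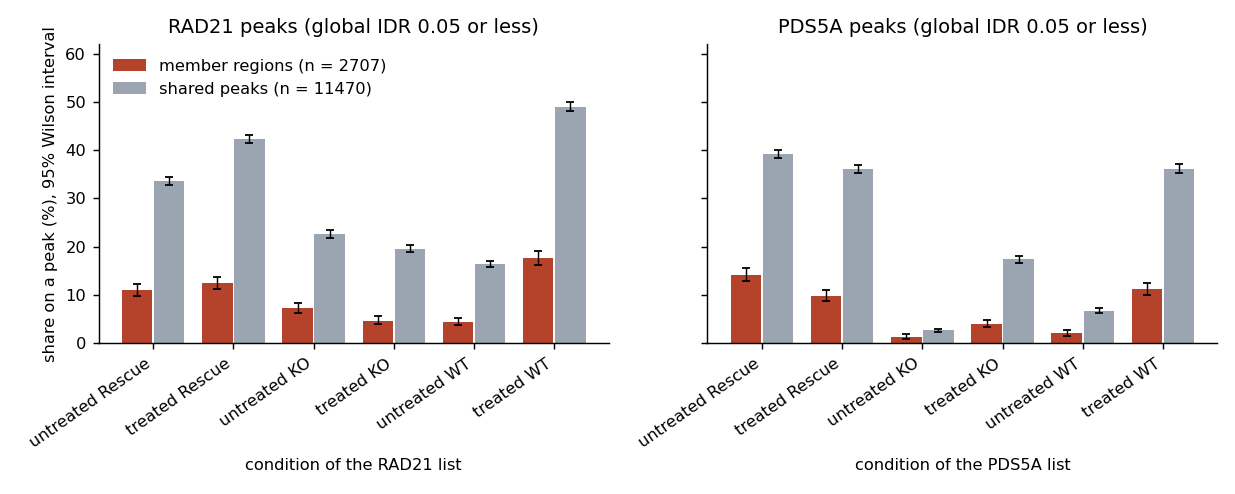
Share of Rescue-only H3K27Ac peaks (member regions, n = 2707) and shared peaks (n = 11470) that overlap a RAD21 peak (left) or a PDS5A peak (right) of each condition, in percent. Bars are shares and error bars 95% Wilson intervals; the Rescue-only bar is the lower of the pair in all 12 comparisons, for example 11.0% against 33.6% for RAD21 of untreated Rescue cells.

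Since Rescue-only peaks were weaker and narrower, the shares were also read within these strength classes. In the weakest class RAD21 of untreated Rescue cells lay on 8.97% of 1617 Rescue-only peaks, against 18.6% of 1974 shared peaks. In the second class it lay on 11.4% of 800 Rescue-only peaks, against 25.5% of shared peaks, and in the third on 19.2% of 245, against 31.8%. In the strongest class it lay on 14 of 45 Rescue-only peaks (31.1%, interval 19.5% to 45.7%), against 49.9% of shared peaks (48.3% to 51.6%). PDS5A lay on 12.1%, 14.8%, 20.8% and 42.2% of Rescue-only peaks from the weakest to the strongest class, against 22.4%, 31.0%, 36.9% and 57.2% of shared peaks. In both sets the shares were higher in stronger classes. The Rescue-only share was the lower one in every class, and for PDS5A in the strongest class its interval of 29.0% to 56.7% met that of the shared peaks, 55.5% to 58.8%.

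**Figure D3:**
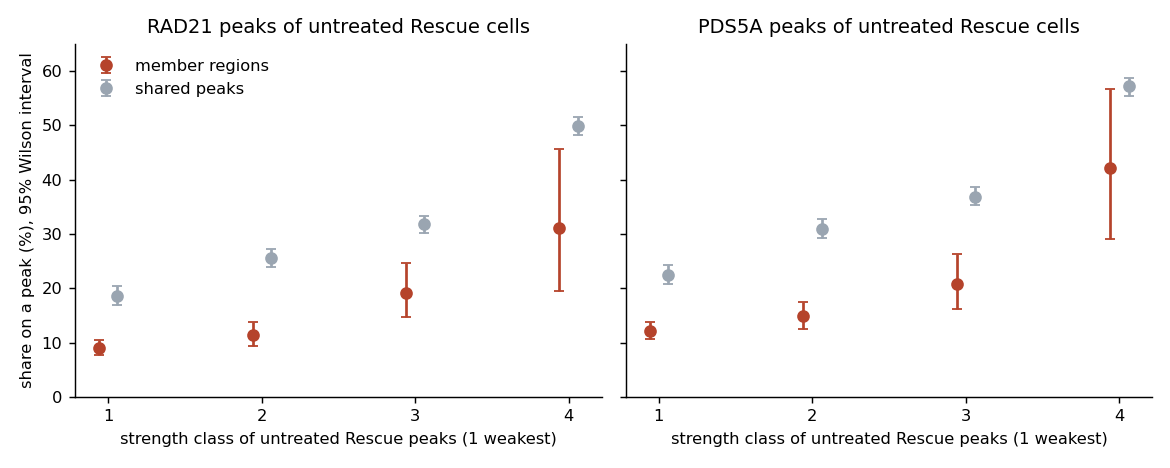
Share of Rescue-only peaks (member regions) and shared peaks on a RAD21 peak (left) or PDS5A peak (right) of untreated Rescue cells, in percent, by class of H3K27Ac strength from 1 (weakest) to 4 (strongest). Points are shares and bars 95% Wilson intervals; the widest interval is that of the 45 Rescue-only peaks of the strongest class, 19.5% to 45.7% for RAD21.

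Within classes of width the Rescue-only share was also the lower one in every class. Among peaks under 1000 bp, RAD21 lay on 11.9% of Rescue-only peaks and 26.9% of shared peaks. At 1000 to 1500 bp the shares were 10.2% at Rescue-only and 32.6% at shared peaks, and at 1500 to 2000 bp 10.6% and 35.2%. At 2000 to 3000 bp they were 9.60% and 35.9%, and at 3000 bp or more 17.3% and 33.8%. Unlike with strength, the Rescue-only share did not rise from class to class. With every H3K27Ac peak reduced to 1 kb around its centre, the RAD21 shares were 10.9% at Rescue-only peaks and 32.9% at shared peaks, and the PDS5A shares 14.0% at Rescue-only peaks and 38.3% at shared peaks.

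The cohesin peaks that did overlap were of about the same strength in both sets. The strongest RAD21 peak on a Rescue-only peak had a median lower replicate −log10 p of 21.0, against 22.4 on a shared peak. For PDS5A the median was 19.9 on Rescue-only peaks and 20.9 on shared peaks. The median distance between the centres of the H3K27Ac and RAD21 peaks was 130 bp at Rescue-only peaks and 128 bp at shared peaks, and for PDS5A 137 bp at both.

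Background also differed between the sets. A deposited IgG entry of any condition, whatever its IDR, overlapped 261 Rescue-only peaks (9.64%, interval 8.59% to 10.8%), against 43.9% of shared peaks (43.0% to 44.8%) and 37.3% of all. IgG entries of untreated Rescue cells themselves lay on 13 Rescue-only peaks (0.480%) and on 5.54% of shared peaks, and those of treated WT cells, the longest IgG list, on 7.83% of Rescue-only peaks and 37.5% of shared peaks. The IgG share of the regions found in untreated Rescue cells alone was 25.1% with a global IDR of 0.01 or less, 28.9% with lists of equal length and 0.385% with every deposited entry. Under these settings the IgG share of shared peaks was not computed. In both sets the IgG share was higher in stronger classes. From the weakest to the strongest class it went from 8.10% to 24.4% at Rescue-only peaks and from 26.7% to 62.5% at shared peaks. When all regions on an IgG entry were left out, RAD21 of untreated Rescue cells lay on 8.50% of the remaining 2446 Rescue-only peaks, against 19.5% of 6436 shared peaks. PDS5A then lay on 10.5% of Rescue-only peaks, against 22.9% of shared peaks. The difference in RAD21 share was then 11.0 percentage points, against 22.6 points with every peak, and stayed in the same direction.

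Nearly all Rescue-only peaks had a deposited entry in another H3K27Ac list that missed the IDR limit. Such an entry was present in at least 1 of the other 5 lists for 2656 of the 2707 (98.1%, interval 97.5% to 98.6%). The treated Rescue list had one at 2459 Rescue-only peaks (90.8%), against an entry at 99.4% of shared peaks and 97.8% of all, where entries at shared peaks may be peaks. The treated KO list had one at 2241 (82.8%), against 98.2% of shared peaks and 95.3% of all, and the untreated KO list at 1329 (49.1%), against 88.9% of shared peaks and 81.3% of all. The treated WT list had one at 1916 (70.8%), against 94.2% of shared peaks and 89.7% of all, and the untreated WT list at 1506 (55.6%), against 91.2% of shared peaks and 84.4% of all. The untreated KO and WT lists, which had the lowest shares, were also the shortest as deposited, with 23305 entries in untreated KO and 22245 in untreated WT, against 38466 to 44401 in the 3 treated lists. What list length contributes was not tested.

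By the number of other lists with an entry, the Rescue-only peaks divided into 51 with 0, 162 with 1, 392 with 2, 643 with 3, 719 with 4 and 740 with all 5. Peaks with entries in more lists were stronger and wider. The median strength was 11.9 and the median width 670 bp at the 51 without an entry elsewhere, and 15.1 and 1614 bp at the 740 with entries in all 5. RAD21 of untreated Rescue cells lay on 2 of the 51 (3.92%, interval 1.08% to 13.2%) and on 112 of the 740 (15.1%, interval 12.7% to 17.9%). An IgG entry lay on 0 of the 51 and on 130 of the 740 (17.6%). An entry in a KO list but in no WT list was found at 336 Rescue-only peaks (12.4%), against 1.68% of shared peaks and 3.73% of all. One in a WT list but in no KO list was found at 227 (8.39%), against 0.750% of shared peaks and 2.21% of all. The treated Rescue list was the only other list with an entry at 89 (3.29%), against 0.139% of shared peaks and 0.741% of all. Every shared peak lies in a region with a peak of another list by definition, so these shares of the 2 sets were not set on equal terms.

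In the 3 treated lists the entries at Rescue-only peaks reached peak level in 1 replicate alone more often than all entries over the limit did. In the 2 untreated lists they did so less often. Where a list had more than 1 entry at a Rescue-only peak, the one of lowest IDR was taken. All entries of the list over the limit, those at Rescue-only peaks included, form the comparison, so the 2 sides were not chosen alike. For each list, the lowest strength of any of its peaks served as the mark to reach. In the treated Rescue list, whose mark was 10.8, 56.6% of the entries at Rescue-only peaks reached it in exactly 1 replicate, 12.3% in both and 31.2% in neither. Over all 31410 entries of that list over the IDR limit, 32.8% reached it in exactly 1 replicate and 4.55% in both. In the treated WT list 56.8% reached the mark of 9.89 in exactly 1 replicate and 15.7% in both, against 44.7% and 11.0% of all its entries over the limit. In the treated KO list 43.6% reached the mark in exactly 1 replicate, against 31.2% of all such entries. In the untreated KO list 31.2% of the entries at Rescue-only peaks reached the mark in exactly 1 replicate, against 34.5% of all such entries, and in the untreated WT list 26.6%, against 31.7%. Most entries at Rescue-only peaks reached it in neither replicate in these 2 lists, 65.5% in untreated KO and 72.8% in untreated WT. Counted over any of the other 5 lists, at least 1 replicate value reached that list's mark at 2314 Rescue-only peaks (85.5%), and both did at 628 (23.2%). These counts give each peak up to 5 lists and have no comparison set. Within 1 list, both values reached the mark at 0.598% of the entries in untreated WT and up to 15.7% in treated WT.

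The median global IDR of these entries was 0.315 in treated Rescue, against 0.476 for all entries of that list over the limit. It was 0.320 in treated KO, against 0.430, and 0.266 in treated WT, against 0.348. In the untreated lists it was nearer to that of all entries, with 0.387 against 0.411 in KO and 0.398 against 0.407 in WT. An IDR of 0.1 or less, just over the limit, was reached in some other list by 1047 Rescue-only peaks (38.7%). This count takes the lowest IDR over several lists and has no comparison set, and the shares within a list were lower. In treated Rescue 18.0% of the entries at Rescue-only peaks had such an IDR, against 7.40% of all entries of that list over the limit, in treated KO 14.1%, against 9.52%, and in treated WT 18.8%, against 13.0%. In the untreated lists the shares were below those of all entries, with 7.75% against 9.90% in untreated KO and 8.03% against 9.87% in untreated WT. The higher replicate value was at least 2 times the lower at 29.5% of the treated Rescue entries, against 21.9% of all entries of that list over the limit, and at 34.6% of the treated WT entries, against 26.7%. In treated KO these shares were 23.2% at Rescue-only peaks, against 21.6% of all entries over the limit, in untreated KO 17.5%, against 19.8%, and in untreated WT 16.9%, against 21.1%. In the treated WT list the second replicate column held the higher value at 74.8% of the entries at Rescue-only peaks. In the other 4 lists it did so at 46.7% to 53.5%. The same share over all entries of a list was not computed, so this cannot be read as a trait of these regions. The peaks of the treated WT list as a whole had a median replicate ratio of 1.45, against 1.22 to 1.25 in the other 4 lists. Over all deposited entries the Spearman correlation between replicates was 0.543 in treated WT, within the range of 0.535 to 0.629 of the other 4 lists, so the treated WT list stood apart in the ratio at its peaks but not in this correlation. The correlation is across entries, which are not independent replicates.

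**Figure D4:**
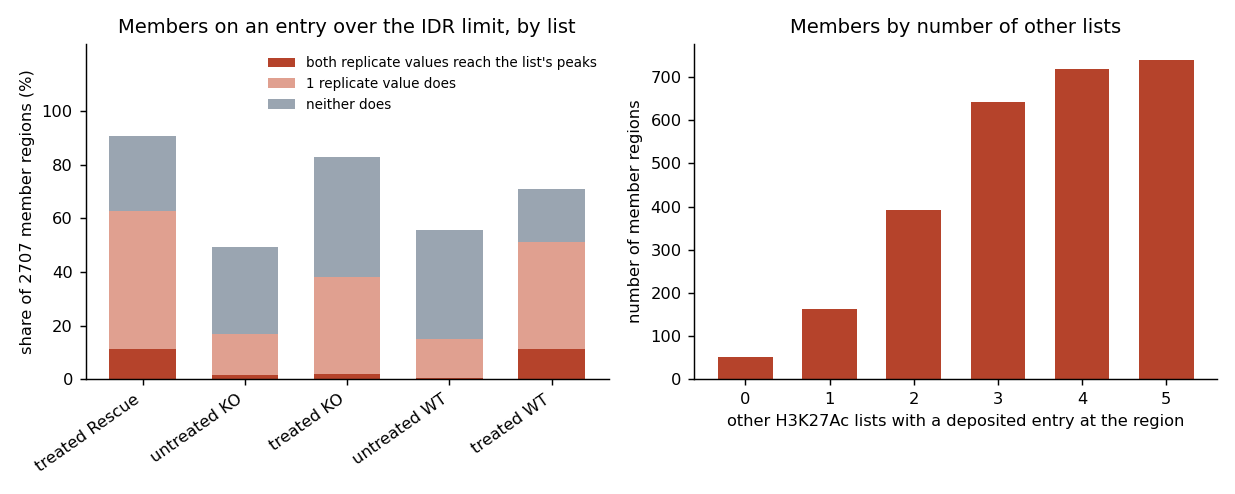
Left, share of the 2707 Rescue-only peaks (member regions) with a deposited entry over the IDR limit in each other H3K27Ac list, in percent, divided by whether both, 1 or neither replicate value reached the lowest strength of that list's peaks. Right, number of Rescue-only peaks by how many of the other 5 lists had such an entry, from 51 with 0 to 740 with 5.

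**Figure D5:**
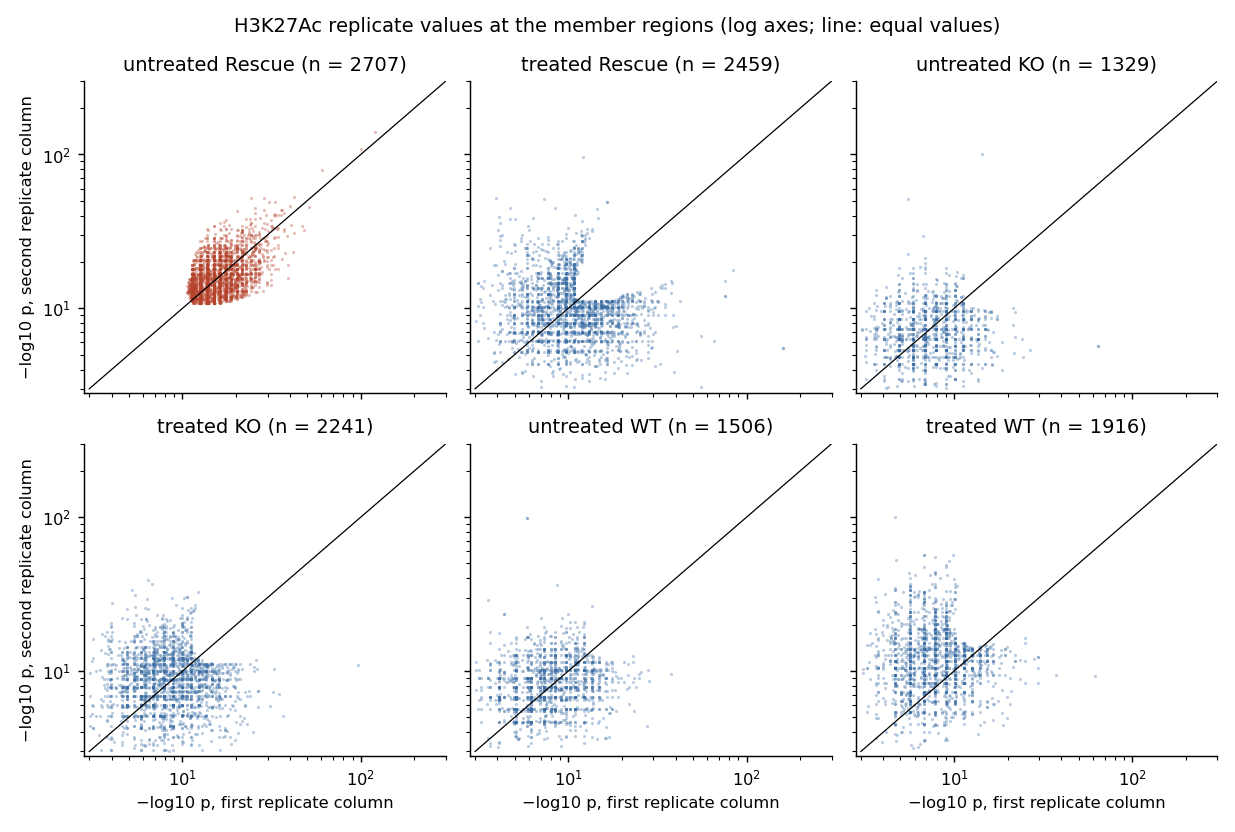
−log10 p in the first (x) and second (y) replicate column at Rescue-only peaks, for the untreated Rescue list and for the entry of lowest global IDR in each other H3K27Ac list, on log axes. The line marks equal values. Untreated Rescue points cluster along the line from 10.6 upwards in both columns because the rule required it. In the treated Rescue and treated WT panels many points are high in 1 column and low in the other, where the rule required every entry to miss the IDR limit.

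Several of the strongest Rescue-only peaks had far apart replicate values in other lists. By the rule every entry elsewhere missed the IDR limit. An entry that is high in 1 replicate and missed the limit is apt to be low in the other. These gaps thus follow in part from the rule. The strongest and widest was chr20:45982529-45990898 (GRCh37, 8370 bp), with replicate values of 120.4 and 139, sixth by strength among all peaks of the untreated Rescue list. At the same place the treated Rescue list had an entry with 159 in the first column and 5.49 in the second. The untreated KO list had 14.3 and 100.4, the treated KO list 6.17 and 12.8, the treated WT list 4.69 and 99.7, and the untreated WT list 5.86 and 99.4. So 1 replicate was at 99.4 or higher in 4 of the 5 other lists, and the other replicate of these 4 lists was at 14.3 or lower. The boundaries of both replicates were wide in every list, for example 10079 and 8825 bp in treated Rescue cells. How the deposited −log10 p of an entry was taken from a wide peak is not stated in the labels or lists, so a low value beside wide boundaries, here and at the regions that follow, cannot be read as a weak signal of that replicate over the whole region. IgG entries lay here in 5 conditions, a RAD21 peak in 6 and a PDS5A peak in 5.

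The next was chr14:75986162-75990897 (4736 bp), with replicate values of 101 and 109 in untreated Rescue cells. It had 12 and 95.9 in treated Rescue cells, 5.50 and 51.3 in untreated KO cells, 97.1 and 10.9 in treated KO cells, 61.7 and 9.22 in treated WT cells, and 8.62 and 36.0 in untreated WT cells. In all 5 other lists 1 replicate was at 36.0 or higher and the other at 12 or lower. No IgG entry lay here, a RAD21 peak was present in all 6 conditions and a PDS5A peak in 3. The third, chr11:71750039-71754243 (4205 bp), had 60.7 and 78.7 in untreated Rescue cells and 55.3 and 6.62 in treated Rescue cells. In untreated KO cells it had 6.72 and 29.4, in treated KO cells 8.90 and 8.78, in treated WT cells 6.04 and 41.8, and in untreated WT cells 18.4 and 9.89. Here treated KO cells were low in both replicates.

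The other 7 of the 10 strongest had lower replicate values of 35.5 to 45.8 and widths of 968 to 3312 bp, and all 10 had an entry in all 5 other lists. They were chr3:142157859-142160614, chr12:49180889-49184200, chr17:17630777-17633522, chr14:38573101-38575685, chr15:90701203-90702170, chr17:73042181-73044419 and chr1:117131462-117132590. At chr1:117131462-117132590, with 35.5 and 43.7 in untreated Rescue cells, the treated Rescue list had 40.1 and 7.65 and the treated KO list 34.6 and 7.09. At chr14:38573101-38575685, with 37.3 and 41.9 in untreated Rescue cells, the treated Rescue list had 30.7 and 7.07 and the untreated KO list 9.0 and 8.49. At chr12:49180889-49184200, with 42.0 and 52.9 in untreated Rescue cells, the treated Rescue list had 5.50 and 12, the first of which was below that list's mark of 10.8. Of the 10, 5 had no RAD21 or PDS5A peak in any condition, and 7 had no IgG entry.

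The widest after the chromosome 20 region were chr11:65185133-65193235 (8103 bp), chr19:13260309-13268010 (7702 bp), chr17:48711569-48718935 (7367 bp) and chr19:4372062-4378280 (6219 bp). Their lower replicate values were 23.8 to 32.2, below those of the 10 strongest. Each had entries in all 5 other lists and IgG entries in 1 to 3 conditions. The strongest Rescue-only peaks with no entry elsewhere were far weaker and narrower. The first 2 were chr10:101096360-101097477 (1118 bp, 16.2 and 16.9) and chr15:52544753-52545520 (768 bp, 16.2 and 20.5), and the next 3 had a lower replicate value of 14.9. None of these 5 had a RAD21 or PDS5A peak or an IgG entry in any condition.

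Both a RAD21 and a PDS5A peak of untreated Rescue cells, and no IgG entry, lay on 138 of 2707 Rescue-only peaks (5.10%), against 7.57% of shared peaks. The 5 of these strongest in H3K27Ac differed in how many conditions had a cohesin entry inside the limit. After the chromosome 14 region above came chr15:90701203-90702170 (968 bp), with H3K27Ac values of 36.2 and 43.8 in untreated Rescue cells. It had a RAD21 and a PDS5A peak in all 6 conditions. Its RAD21 values were 257 and 133 in untreated Rescue cells, 232 and 169 in treated Rescue, 134 and 71.3 in untreated KO, 53.1 and 139 in treated KO, 258 and 139 in treated WT, and 171 and 58.0 in untreated WT cells. Its H3K27Ac values were 4.13 and 29.7 in treated Rescue cells and 11.2 and 16.6 in untreated WT cells, so its cohesin peaks passed the limit where its H3K27Ac did not. The region chr11:57045237-57046859 (1623 bp) also had both cohesin peaks in all 6 conditions, with RAD21 at 108 and 63.0 and PDS5A at 126 and 195 in untreated Rescue cells. Its H3K27Ac values were 27 and 26.1 in untreated Rescue cells and 33.4 and 14.3, with an IDR of 0.05915, in treated Rescue cells. By contrast chr1:47942800-47945368 (2569 bp, 33.8 and 32.8) had its RAD21 and PDS5A peaks in 1 condition each, untreated Rescue. The last, chr19:53360483-53361350 (868 bp, 40.4 and 34.7), had a RAD21 peak in 3 conditions and a PDS5A peak in 1. Entries over the limit lay there as well, for RAD21 in untreated KO (IDR 0.07594), untreated WT (0.138) and treated KO cells (0.2279). For PDS5A the nearest to the limit was that of treated WT cells, with 23.4 and 10.1 and an IDR of 0.05432.

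Other lists also had peaks of their own. The treated WT list had 2596 such regions, the treated Rescue list 1950, the treated KO list 467, the untreated KO list 97 and the untreated WT list 80. The 3 largest of these sets differed in how often other lists had an entry at them: 1.88% of the 2707 untreated Rescue regions had none elsewhere (interval 1.44% to 2.47%), against 3.95% of the treated Rescue regions (3.17% to 4.91%) and 36.2% of the treated WT regions (34.4% to 38.1%). Entries in all 5 other lists were present at 27.3% of the untreated Rescue regions, against 23.6% of the treated Rescue and 9.86% of the treated WT regions. The untreated Rescue list had an entry at 88.0% of the treated Rescue regions, and the treated Rescue list at 90.8% of the untreated Rescue regions. A further 1889 regions had peaks in both Rescue lists and in no other list.

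Rescue-only peaks lay on all 22 chromosomes. They made up 32.2% of the untreated Rescue peaks of chromosome 18 (58 of 180, interval 25.8% to 39.4%), 25.5% of those of chromosome 8 (22.1% to 29.3%) and 25.2% of those of chromosome 4 (21.2% to 29.6%), the 3 highest shares, against 16.3% on chromosome 17 (14.0% to 18.8%), the lowest, and 17.1% on chromosome 1 (15.3% to 19.1%). The list had 180 peaks on chromosome 18 and 1472 on chromosome 1. A Rescue-only peak lay in 1192 windows of 1 Mb, of which 509 held 1 and 120 held 5 or more. The window with the most was 48 to 49 Mb of chromosome 20, with 13 Rescue-only and 42 shared peaks, where the treated Rescue list had 43 peaks and the other 4 lists 22 to 30. The window at 4 to 5 Mb of chromosome 19 held 10 Rescue-only and 6 shared peaks, where the treated Rescue list had 10 peaks, the untreated KO list 0, the treated KO list 3, the treated WT list 1 and the untreated WT list 2. The window at 19 to 20 Mb of chromosome 8 also held 10, beside 5 shared peaks, with 6 peaks in treated Rescue cells and 1 or 2 in each of the other 4 lists.

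Rescue-only peaks lay about as near to shared peaks as shared peaks lay to each other. The median gap from a Rescue-only peak to the nearest shared peak was 24119 bp, and from a shared peak to the next shared peak 25737 bp. A gap of 5 kb or less was found at 21.2% of Rescue-only peaks (interval 19.7% to 22.8%) and at 19.4% of shared peaks (18.6% to 20.1%), and one of 100 kb or less at 80.2% of Rescue-only peaks and 81.7% of shared peaks.

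Which regions were found in untreated Rescue cells alone depended on the limit and on list length. With each H3K27Ac list shortened to its 5045 strongest peaks, the number in the untreated WT list, 481 regions were left, and only 116 of the 2707 lay in one of them. With a global IDR of 0.01 or less there were 1843, and 417 of the 2707 (15.4%) lay in one of them. With every deposited entry there were 3892, and these took in only the 51 without an entry elsewhere (1.88%). The 10 strongest stayed under both the shortened lists and the stricter limit, and 0 of the 10 stayed when every deposited entry counted.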

How the data were processed

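Coordinates are GRCh37, start counted from 1. The submitters' processing notes list MACS2 2.2.7.1, Bowtie2 2.4.2, deepTools 3.5.1, bedtools 2.30, SAMtools 1.16, FastQC and Trimmomatic. How peaks were called, against which control, and the IDR settings are not stated in the labels or lists used here. Each of the 24 deposited lists joined 2 samples and gave, as deposited by the authors, −log10 p per replicate (3.00 or more in every list) and −log10 of the global IDR. The replicate columns could not be tied to sample numbers. The 12 H2A samples were not analysed here. Depth per sample is unknown, since a peak list holds no read counts.

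Computed here (pandas 2.3.3, numpy 2.4.6, matplotlib 3.10.9 and scipy 1.17.1 under Python 3.11.15) were merging of the 6 H3K27Ac lists (entries with −log10 IDR of 1.301 or more, chromosomes 1 to 22, 1 bp of overlap), overlaps of 1 bp or more, and Wilson 95% binomial intervals. Merging and membership code was tested on simulated lists, and overlap calls against a direct search at 500 untreated Rescue H3K27Ac peaks. Strength, an authors' value, served only to describe and rank within a list. Regions named by position were the 10 strongest, the 5 widest, the 5 strongest without an entry elsewhere, the 5 strongest with both cohesin peaks and no IgG entry, the 5 nearest the limit on each side and the 3 windows of 1 Mb with most Rescue-only peaks. The regions, rule and alternatives were chosen with earlier results of these data known. Planned shares in promoters and near gene lists were not computed, as no GRCh37 annotation was used here, and no gene or sequence was read from a coordinate.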

Additional observations from a re-analysis of the deposited data

How the results depend on the processing

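With a global IDR of 0.01 or less, the Rescue-only share of the list's peaks was 23.9%, the median strength 21.4 and the median width 1727 bp. The share with an entry elsewhere was then 100% and the IgG share 25.1%. Here the stricter limit was set on the RAD21 and PDS5A lists as well. The RAD21 share was 10.9%, against 24.5% of shared peaks, and the PDS5A share 11.9%, against 28.4%. With every deposited entry, the share of the list was 10.1%, the median strength 4.99, the median width 542 bp and the IgG share 0.385%. Every deposited entry of the cohesin lists counted there too. RAD21 entries lay on 7.86% of the regions, against 42.7% of shared peaks, and PDS5A entries on 9.94%, against 48.7%. The share with an entry elsewhere has no value there. The IgG share of shared peaks was not computed under any alternative. With lists of equal length there were 481 regions, 9.53% of the shortened list, with a median strength of 26.5, a median width of 1869 bp, a RAD21 share of 27.2%, a PDS5A share of 30.6%, an entry elsewhere at 100% and an IgG share of 28.9%. With regions on an IgG entry left out, the share of the list was 27.5%, the RAD21 share 8.50% and the PDS5A share 10.5%. With the boundaries of the first replicate column the median width was 1110 bp, and with those of the second 1052 bp. Without each replicate in turn the median strength was 14.9 to 15.5 and the median width 1052 to 1110 bp. The cause of these moves was not tested, except that a single replicate's boundaries lie within the joined ones and a single replicate's value is at least the lower of the pair. Overlap of 50% of the shorter interval, chromosome X added and cohesin within a window of 1 kb at the centre moved no share beyond its interval. They moved no median by more than the spread of the replicate medians. The last of these settings was chosen after seeing the data. The number of regions has no interval or spread, and was 2732 with 50% overlap and 2779 with chromosome X, against 2707. The share on RAD21 and on PDS5A was lower at Rescue-only than at shared peaks under every alternative run, by 11.0 points or more. No paired analysis was possible because each list joins both replicates and no result comes from a test; counts and shares could not be recomputed without a replicate for the same reason. Depth per sample is unknown, so an entry below the limit in a short list cannot be told from one missed for lack of reads.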

Other observations

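On chromosome X, outside the regions described above, the same rule gave 72 further Rescue-only peaks among 269 untreated Rescue peaks.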
